A study of Mus musculus with 16 samples.

Results

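Complement genes were followed in the unlesioned neocortex of mice after removal of the cortex on the other side of the brain. The 9 genes were 3 chains of the recognition molecule (*C1qa*, *C1qb* and *C1qc*), 3 components of the cascade (*C3*, *C4b* and *Cfb*), 2 receptors (*C3ar1* and *C5ar1*) and an inhibitor (*Serping1*). They were chosen by name, with earlier results of these data known. Each was read from its brightest probe, by the mean signal over all arrays. All 9 were found among the 20145 genes with a named probe on the array, and *C3* and *Serping1* had a further probe each.

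The animals were C57BL/6J mice whose left cortex, including the sensorimotor area, had been aspirated (labelled hemidecortication). The operation was done at P7 in the neonatal group (NBH, written NBI in the labels) and in adulthood in the adult group (ABH, written ABI in the labels). The right neocortex rostral from bregma was taken, at postnatal 14 and 35 days in NBH, which is 1 and 4 weeks after surgery. The ABH samples, taken at the same intervals, carry label ages of 11 and 15 weeks. Controls were taken at P7, P14, P35 and 10 weeks, and the 10-week control served both ABH pools, so those comparisons share their control and neither ABH pool has a control of its own age. RNA was pooled within a group, from 4 male animals per the methods, and each of the 8 pools was hybridized once with Cy3 and once with Cy5. The 2 arrays of a pool are technical repeats, so a value is given as mean ± SD of 2 arrays, that SD holds no variation between animals, and no p-value can be given.

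Complement is a set of plasma and tissue proteins that tag surfaces and call in phagocytes. C1q binds its target and sets off the classical pathway, in which C4 and then C3 are cleaved. Factor B (*Cfb*) belongs to the alternative pathway, which amplifies C3 cleavage, and the fragments C3a and C5a act through the receptors encoded by *C3ar1* and *C5ar1*. C1 inhibitor, the product of *Serping1*, blocks the proteases that travel with C1q. In the brain, microglia make most of the C1q, astrocytes make C3 and C4, and the pathway is known for tagging synapses that microglia remove.

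A level is the background-corrected signal of the labelled channel divided by the 75th percentile of its array, on the log2 scale. A change is the level after surgery minus the level in the control, taken within each dye. A call needed a ratio of 1.5 or more (higher) or of 0.75 or less (lower) in each dye. The study's methods give these limits where they describe its RT-PCR figures. Its array genes were selected otherwise, by the significance threshold of the image software and the direction on both chips. Genes entered a comparison if 1 of its pools, or both, had the probe well above background in each dye. Median spot signals lay between 192.5 and 253 per array over backgrounds of 59 to 72, and no probe of the 9 genes was saturated. All controls lay in one row of each chip and all surgery pools in the other, so chip position and surgery cannot be told apart. The 8 markers of cortical excitatory neurons were above background in every pool, and so were the 8 striatum markers. *Xist*, a transcript of the inactive X chromosome in females, was above background on both arrays of control P35 with both of its probes, whereas the methods name male animals. Both NBH pools and the ABH 4 weeks pool also carried choroid plexus transcripts, whose values stand beside the results below.

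In ABH 1 week all 9 complement genes were called higher than in the 10-week control, against 5.78% of the 16322 genes compared. Since the 9 were chosen with earlier results of these data known, this contrast is a description only. Their median change was 2.00 on the log2 scale, and the median over all genes was −0.08. Of the 9, 7 were above background on all 4 arrays, while *C5ar1* and *Cfb* entered through the ABH pool alone and could therefore only differ upward. In ABH 4 weeks 1 of 7 compared genes, *C4b*, was called higher, against 0.853% of 16295 genes. In NBH 1 week *C4b* was again the single gene called higher among 7, against 1.11% of 15474 genes. In NBH 4 weeks none of 7 was called higher, against 0.422% of 15877 genes, although the other probe of *C3* was called. No complement gene of the 9 was called lower in any comparison, where the share of all genes called lower was 1.17% at 1 week and 2.17% at 4 weeks in NBH, and 9.74% and 0.687% at these intervals in ABH. The medians of the 7 genes were 0.00 in NBH 1 week, −0.03 in NBH 4 weeks and 0.02 in ABH 4 weeks, next to 0.06, 0.02 and 0.06 for all genes.

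**Figure D1:**
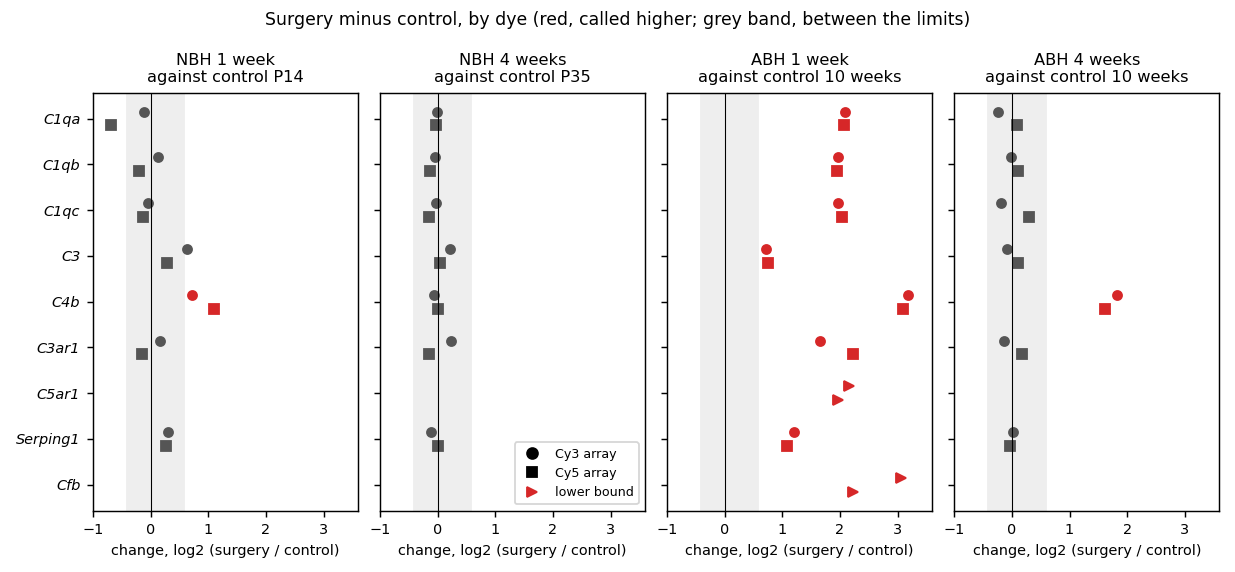
Change of each complement gene (log2, surgery over control) in the 4 comparisons, with circles for Cy3, squares for Cy5, triangles for lower bounds, red for genes called higher and a grey band between the limits of a call. In ABH 1 week every gene lies right of the band, whereas in ABH 4 weeks *C4b* alone does.

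The 3 C1q chains lie next to each other on chromosome 4, in the order *C1qb*, *C1qc*, *C1qa*, and assemble into 1 protein. Since they moved together, the 250 bases before the start of the pair with an entry in the RefSeq promoter table (GRCm38.p6, both on the minus strand) are shown, *C1qb* at chr4:136886201-136886450 and *C1qc* at chr4:136892915-136893164. Capitals mark GAGGAA on either strand, a core of the sites bound by PU.1, a transcription factor of myeloid cells.
C1qb: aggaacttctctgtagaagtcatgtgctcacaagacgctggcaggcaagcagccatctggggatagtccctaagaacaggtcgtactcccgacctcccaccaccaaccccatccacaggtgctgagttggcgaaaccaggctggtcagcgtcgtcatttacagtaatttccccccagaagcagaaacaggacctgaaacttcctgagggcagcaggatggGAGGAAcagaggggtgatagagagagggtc
C1qc: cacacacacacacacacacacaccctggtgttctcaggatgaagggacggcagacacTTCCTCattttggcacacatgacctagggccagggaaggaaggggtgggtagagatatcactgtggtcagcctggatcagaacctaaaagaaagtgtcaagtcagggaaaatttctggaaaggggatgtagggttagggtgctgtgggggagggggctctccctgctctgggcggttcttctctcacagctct
The motif lay 30 to 25 bases before the start of *C1qb* and, on the other strand, 193 to 188 bases before that of *C1qc*. It was found in 2 of the 5 complement genes with an entry (the others were *C3*, *C3ar1* and *C5ar1*) and in 23.3% of the 32851 promoters of the same length, so its presence is common. A STAT-type motif (TTCNNNGAA, in 7.02% of promoters) and an interferon-response motif (in 2.98%) were in none of the 5. An NF-kB-type motif (in 1.41%) was in 1, that of *C3ar1*, 14 to 5 bases before the start. All motifs were searched on both strands, and these matches are letters in a window, not shown to be bound.

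*C1qa* had levels of 1.70 (Cy3) and 1.56 (Cy5) in the 10-week control and of 3.78 and 3.63 in ABH 1 week. The ABH values lay far above the control values with both dyes, and the change was 2.08 ± 0.00, or 4.22-fold. *C1qb* went from 1.37 and 1.28 to 3.33 and 3.22, a change of 1.95 ± 0.01 or 3.87-fold. *C1qc*, whose probe is printed 10 times on each array, went from 2.41 and 2.35 to 4.38 and 4.39, a change of 2.00 ± 0.05 or 4.00-fold. The changes of any pair of chains differed by at most 0.13 in this comparison, so the chains moved by nearly the same amount.

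At 4 weeks after adult surgery no chain was called. The levels of *C1qa* were 1.46 and 1.65, those of *C1qb* 1.35 and 1.39 and those of *C1qc* 2.23 and 2.65, and the changes were −0.07 ± 0.24, 0.05 ± 0.09 and 0.06 ± 0.34. For each chain the dyes gave opposite signs, so the direction is not settled. In NBH 4 weeks the changes against control P35 were −0.02 for *C1qa* and −0.09 for each of the other chains. After neonatal surgery at 1 week *C1qa* was 1.45 with Cy3 and 0.79 with Cy5, against 1.57 and 1.47 in control P14. Its change of −0.40 ± 0.40 therefore rests mainly on the Cy5 array, with which alone it would have been called lower. The changes of *C1qb* and *C1qc* in NBH 1 week were −0.04 ± 0.23 and −0.09 ± 0.06, with opposite signs of the dyes for *C1qb*.

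*C4b*, which encodes the component C4 that C1 cleaves next, had the widest range over the 8 pools among the 7 genes measured in all of them, 3.82 on the log2 scale. Its levels were 0.42 and 0.37 in the 10-week control, 3.59 and 3.47 in ABH 1 week and 2.25 and 1.99 in ABH 4 weeks. Both ABH pools lay above every other pool, and ABH 1 week above ABH 4 weeks, with no overlap of the arrays. The changes were 3.13 ± 0.06, or 8.78-fold, at 1 week and 1.72 ± 0.15, or 3.30-fold, at 4 weeks. By size of the increase among genes above background on all 4 arrays, *C4b* ranked 24 of 15202 in ABH 1 week and 7 of 15759 in ABH 4 weeks. Its levels in NBH 1 week were 0.65 and 0.92, both above the −0.07 and −0.17 of control P14, and its change of 0.91 ± 0.26, or 1.88-fold, ranked 33 of 14778. That call was lost with median scaling and with 2-fold limits. In NBH 4 weeks *C4b* was at 0.30 and 0.20, next to 0.36 and 0.19 in control P35. *C4a*, a near-identical copy on the same chromosome, had no named probe, and whether its transcripts add to the *C4b* signal was not tested.

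*C3* encodes the central component, on which all pathways meet, and its probes differed. With the brightest probe the levels were −0.33 and −0.41 in the 10-week control and 0.38 and 0.34 in ABH 1 week, a change of 0.74 ± 0.03 or 1.67-fold. With the other probe, printed 10 times on each array with an SD over the spots of 0.03 to 0.15, the levels went from −2.19 and −2.24 to 0.49 and 0.51, a change of 2.71 ± 0.05 or 6.57-fold. Both probes thus gave a call in ABH 1 week, with changes nearly 2 log2 units apart. The brightest probe gave 0.17 and −0.18 in NBH 1 week against −0.47 and −0.46 in control P14. Its change of 0.46 ± 0.25 was not called, because the Cy5 array fell short of the limit. The other probe gave −0.19 and −0.01 against −2.22 and −2.28, a change of 2.15 ± 0.18 or 4.44-fold, which was called.

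The other *C3* probe was also called higher in NBH 4 weeks, at −1.44 and −1.51 against −2.43 and −2.51 in control P35, a change of 0.99 ± 0.01 or 1.99-fold. In ABH 4 weeks it changed by 0.54 ± 0.02, or 1.45-fold, just under the limit. The brightest probe changed by 0.13 ± 0.12 and 0.01 ± 0.14 in these comparisons. Across all 8 pools the brightest probe spanned 1.20 on the log2 scale and the other 2.97, and both put ABH 1 week first and NBH 1 week second. Which of the probes follows the *C3* transcript more closely was not tested, and a probe's level is not set against that of another probe. Summed choroid plexus signal stood above all controls in both NBH pools and in ABH 4 weeks, and its part in the values of the other *C3* probe there was not tested. In ABH 1 week, where that probe was highest, the choroid plexus sum lay within the range of the controls.

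**Figure D2:**
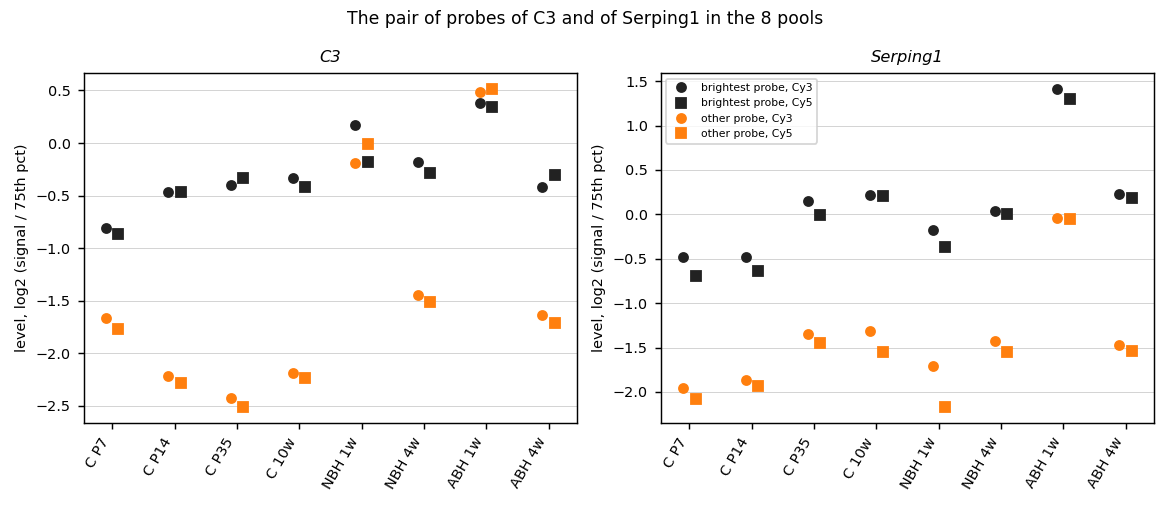
Levels (log2, signal over the 75th percentile of the array) of *C3* (left) and *Serping1* (right) in the 8 pools for the brightest probe (black) and the other probe (orange), with circles for Cy3 and squares for Cy5. Each probe is to be read against its own controls, and from the 10-week control to ABH 1 week the brightest *C3* probe changes by 0.74 and the other by 2.71, whereas the *Serping1* probes change by 1.14 and 1.38.

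*Cfb* was measured with both dyes in a single pool, ABH 1 week. Its levels there were −2.37 with Cy3 and −2.99 with Cy5, and the control was below background on both arrays, so the gene was at least 6.21-fold higher, or 2.64 on the log2 scale, where another background correction, normexp, gave 1.44. One array of ABH 4 weeks, that with Cy3, was also above background, at −4.68, while the Cy5 array at −5.95 was not. No change is given for *Cfb* in the other comparisons, in which neither pool was above background on both arrays.

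*C3ar1*, the receptor of C3a, was measured in every pool. Its levels were −2.78 and −3.05 in the 10-week control and −1.14 and −0.83 in ABH 1 week, a change of 1.93 ± 0.41 or 3.82-fold. The dyes gave 1.64 and 2.22, a wider gap than for the C1q chains, but both lay well past the limit. In ABH 4 weeks the levels of −2.92 and −2.87 fell between those of the control arrays, and the NBH changes were 0.00 ± 0.22 at 1 week and 0.05 ± 0.27 at 4 weeks. *C5ar1*, the receptor of C5a, was likewise measured with both dyes in no pool but ABH 1 week, at −3.27 and −3.25, and was at least 4.16-fold higher than in the 10-week control, or 2.06 on the log2 scale, where normexp gave 1.28. A single further array, Cy5 of NBH 4 weeks at −5.11, was above background for it. Control P14 had no signal for *C5ar1* above its local background.

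*Serping1* encodes the inhibitor of the C1 proteases and was called higher in ABH 1 week with both of its probes. The levels of the brightest probe were 0.22 and 0.21 in the 10-week control and 1.41 and 1.30 in ABH 1 week, a change of 1.14 ± 0.08 or 2.20-fold. The other probe changed by 1.38 ± 0.16, or 2.60-fold. In ABH 4 weeks the brightest probe was at 0.23 and 0.18, next to the control values. After neonatal surgery its change at 1 week was 0.29 ± 0.02, short of the limit, and the other probe gave −0.04 ± 0.28 with opposite signs of the dyes. In NBH 4 weeks the change was −0.05 ± 0.09.

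**Figure D3:**
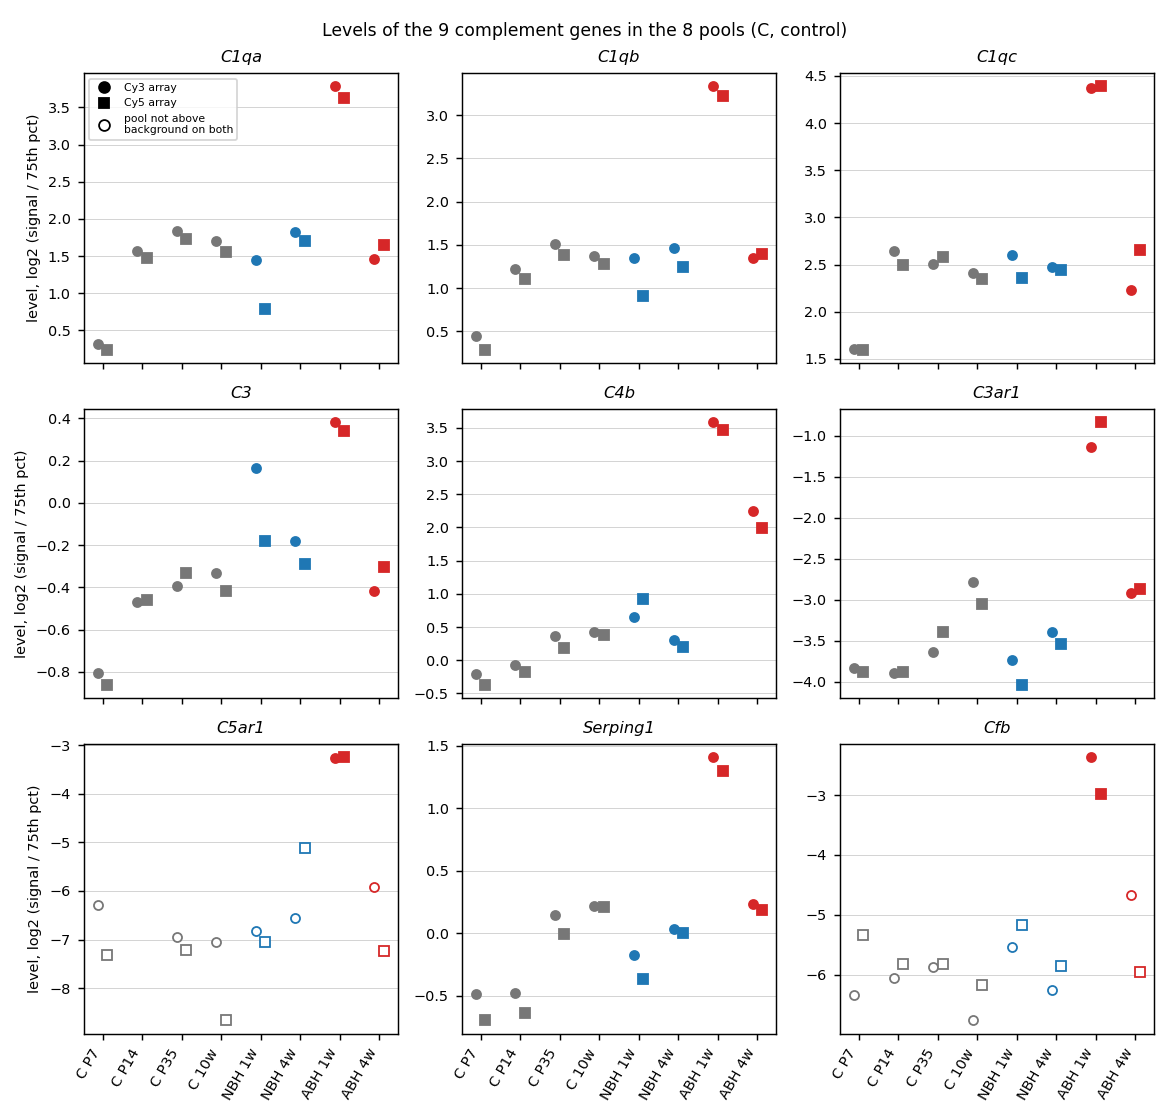
Levels (log2, signal over the 75th percentile of the array) of the 9 complement genes in the 4 control, 2 NBH and 2 ABH pools, with circles for Cy3, squares for Cy5 and open symbols for pools that were not above background on both arrays. ABH 1 week is highest in all panels, and *C4b* is the gene whose ABH 4 weeks pool also stands apart from the controls.

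In the controls the C1q chains were lowest at P7. *C1qa* was at 0.32 and 0.24 at P7 and at 1.57 and 1.47 at P14, a difference of 1.24 ± 0.02. *C1qb* differed by 0.80 ± 0.03 and *C1qc* by 0.97 ± 0.10 between these ages. These 3 of the 7 compared genes were called higher at P14 than at P7, where 11.0% of 15469 genes were called higher and 16.9% lower. From P14 to P35 *Serping1* alone was called, with a difference of 0.63 ± 0.01, against 3.59% of 15728 genes higher and 7.76% lower. That call was lost with normexp, with 2-fold limits, with the mean over both probes and with the other probe. From P35 to 10 weeks none of the 7 was called in either direction, against 5.10% of 16262 genes higher and 1.46% lower. *C3ar1* was the gene nearest to a call there, with 0.85 by Cy3 and 0.35 by Cy5. Between P7 and P14 the brightest *C3* probe differed by 0.37 ± 0.05, while the other probe went from −1.72 at P7 to −2.25 at P14, so the direction for *C3* with age depends on the probe. Each of 10 microglia markers was also higher at P14 than at P7, from *Tmem119* (1.43 against −0.37) to *Siglech* (5.71 against 5.49, saturated on 12 arrays). The part of microglia in the C1q differences between these ages was not tested.

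In the order of the 8 pools ABH 1 week came first for all 7 genes measured in every pool, and its arrays did not overlap with those of the next pool. Control P7 came last for *C1qa*, *C1qb*, *C1qc*, *C3*, *C4b* and *Serping1*, and control P14 for *C3ar1*. With the other *C3* probe control P35 came last. Of the 7 steps between neighbouring pools, 6 were free of overlap for *C4b*, 5 for *C3*, 4 for *Serping1*, 3 each for *C1qa*, *C1qb* and *C3ar1* and 2 for *C1qc*. For *C1qc* every pool between P7 and ABH 1 week overlapped with its neighbour, from 2.38 in the 10-week control to 2.57 in control P14.

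Likeness of pattern was measured as Pearson's r of the pool means over the 8 pools, among 4134 genes above background on all arrays, with no saturated spot and a span of at least 1 log2 unit. The pools share scaling and chips, and ABH 1 week is far from the rest, so each r is a description and is followed by its value over the other 7 pools. *C1qa* was most like *C1qb* (0.99, then 0.97), *Alox5ap* (0.98, then 0.94) and *Tmem176a* (0.98, then 0.93). *C1qb* was most like *Hexa* (0.99, then 0.96), *Irf5* and *Fcgr2b*, and *C1qc* was most like *Ncf1* (1.00, then 0.98), *Pld4* and *Tmem273*. For *C4b* the closest genes were *Nfe2l2* (0.99 both times), *Trim21* and *Vwa5a*. For *C3ar1* they were *H2-Eb1*, *Renbp* and *H2-Q7*, for *Serping1* they were *Phf11d*, *Phf11a* and *Serpina3n*, and for *C3* they were *Slfn8*, *Rhbdf2* and *Themis2*. Between complement genes r lay between 0.71 (*C3* with *C3ar1*) and 0.99 over 8 pools. Without ABH 1 week it was still 0.89 to 0.97 among the C1q chains and 0.88 for *C3ar1* with *Serping1*, but 0.31 for *C1qa* with *C4b* and 0.11 for *C3* with *C3ar1*.

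Of 49 other complement genes 46 had a named probe, *C4a*, *C7* and *Csmd2* being without one. Among 31 compared in ABH 1 week 8 were called higher and 3 lower, with a median change of 0.16, where 5.78% of all genes were called higher and 9.74% lower. Of these, *Itgax*, *Fcna* and *Cpn2* were above background in the pool with the higher signal alone and could differ in that direction only. The higher genes included *C1s1* and *C1s2*, which encode C1 proteases, at 0.82 ± 0.21 and 1.05. *Itgb2*, the shared chain of the integrins that bind cleaved C3, was higher by 1.32, and *Itgax*, which encodes one of its partners, was at least 17.0-fold higher. The cell-surface genes *Cd93* and *Colec12* were higher by 0.91 and 1.03, and *Fcna*, a ficolin of the lectin pathway, was at least 2.53-fold higher. The genes called lower were *C6*, of the membrane attack complex, at −1.26 ± 0.82, *Csmd3* at −1.17 ± 0.63, whose other probe gave −0.02 ± 0.82, and *Cpn2*, at least 1.49-fold lower. The wide spread between dyes shows that the sizes for *C6* and *Csmd3* are loose. The 10-week control had the highest *C6* level of the controls, −2.95 against −4.71, −3.69 and −4.57 at P7, P14 and P35. The *C6* means of ABH 1 week and ABH 4 weeks, −4.22 and −3.73, lay within the range of those younger controls.

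*C2*, which encodes the component cleaved along with C4, changed by 0.65 and 0.31 in ABH 1 week and was not called. *C1ra* changed by 0.61 and 0.44 and *C5ar2* by 0.53 and 0.54, both short of the limit with at least 1 dye, although another *C5ar2* probe was called at 0.77 ± 0.02. *Itgam*, the partner of *Itgb2* in the receptor CR3, changed by −0.15 ± 0.05 with its brightest probe, which was saturated on 2 arrays, and by −0.40 and 0.02 with 2 other probes. *Clu*, an inhibitor of the attack complex, was saturated on 15 arrays, so no change is given for it, although it counts among the compared genes. In ABH 4 weeks *Itgax* was still at least 1.99-fold higher and *C6* was lower by 0.78 ± 0.33, the only calls among 30. Over all genes 0.853% were called higher and 0.687% lower in that comparison. *C1s2* was called higher in NBH 1 week by 0.74, 1 of 27 compared, where 1.11% of all genes were called higher and 1.17% lower. In NBH 4 weeks none of 28 was called, against 0.422% of all genes higher and 2.17% lower.

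**Figure D4:**
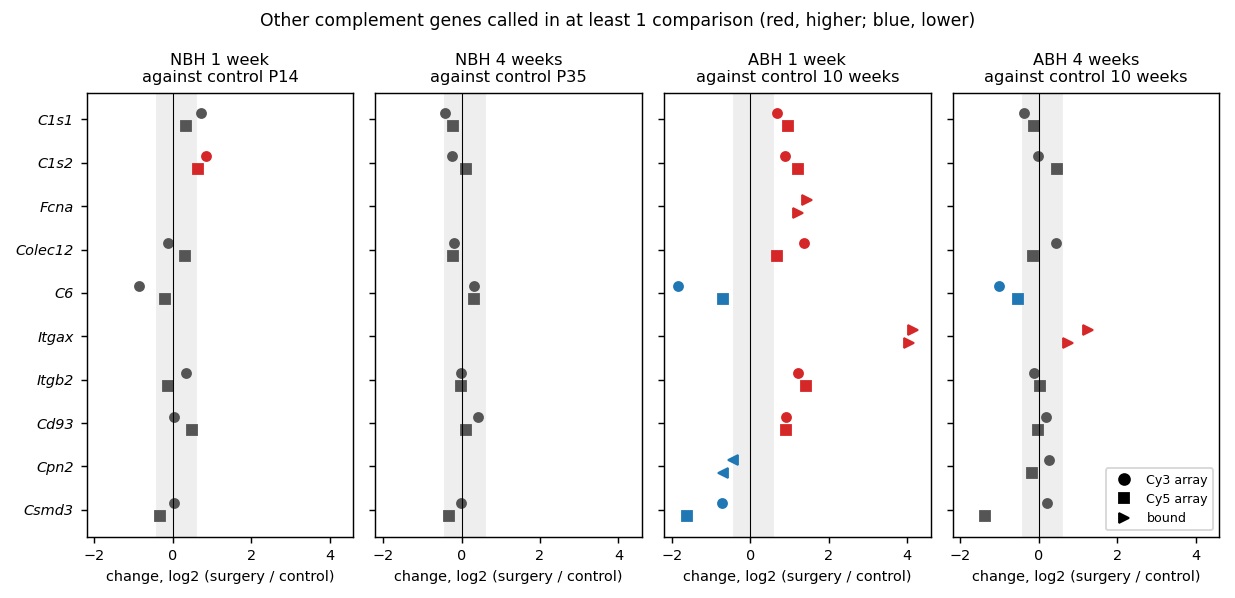
Change (log2, surgery over control) of 10 other complement genes called in at least 1 comparison, with circles for Cy3, squares for Cy5, triangles for bounds, red for higher, blue for lower and a grey band between the limits of a call. Most calls are in ABH 1 week, led by *Itgax* at a bound of 4.09, and a gene without a symbol in a panel was not compared there.

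Markers of other cell types moved with these results. In bulk tissue more cells of a type and more RNA per cell cannot be told apart. Of 10 microglia markers 5 were called higher in ABH 1 week, among them *Fcrls* at 1.57, with a median of 0.70, while *P2ry12* and *Tmem119* changed by 0.52 and 0.46, and *Olfml3* and *Siglech* (saturated on 12 arrays) by −0.45 and −0.09, without a call. The C1q chains changed by 2.00 at the median of the 3 in the same pool. Of 8 compared markers of border macrophages and monocytes 6 were called higher, *Ms4a7* by 3.97 and *F13a1* by 2.68, with a median of 1.54. These 6 include 1 gene that was above background in the ABH pool alone and could only differ upward. In that list *Lyve1* changed by −0.04 and *Ccr2*, whose control was not above background with both dyes, by −0.15, without a call. The summed signal of that list was 8.78 and 9.08 times the 75th percentile in ABH 1 week and 1.77 to 2.95 in the other 7 pools, and its defining gene *Cd163* was below background on all arrays.

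Astrocyte genes called higher in ABH 1 week were 3 of 8, *Vim* by 2.45, *Aqp4* by 0.95 and *Gfap*, with a mean level of 4.17 against 1.16. Meningeal and fibroblast markers were called higher in 4 of 8, with *Col1a1* at 4.68, blood markers in 3 of 4 and neutrophil markers in 2 of 6. The part of each of these cell types in the complement values of ABH 1 week was not tested. At ABH 4 weeks no marker of microglia, border macrophages or meninges was called. Of the 8 astrocyte markers, whose median was 0.33, *Gfap* alone was called, higher by 1.03, beside the 1.72 of *C4b*. Choroid plexus markers were called higher in 7 of 8 in ABH 4 weeks, and striatum markers in 5 of 8. For 2 of these choroid plexus markers the control was not above background with both dyes, so their changes are bounds.

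The summed choroid plexus signal was 1.01 to 2.01 in the controls and 1.24 and 1.29 in ABH 1 week, but 35.4 and 35.3 in NBH 1 week, 16.8 and 16.7 in NBH 4 weeks and 28.8 and 28.6 in ABH 4 weeks. In both NBH pools and in ABH 4 weeks most of the sum came from 1 gene of the list. *C4b* was called higher in NBH 1 week and ABH 4 weeks and changed by −0.03 ± 0.05 in NBH 4 weeks. In NBH 4 weeks 5 of 8 choroid plexus markers were called higher, 1 of them at a bound. Where the change of *C4b* was largest, ABH 1 week, 1 of 6 compared choroid plexus markers was called higher, *Aqp1*, and 1 lower at a bound, *Slc4a5*. The part of choroid plexus in the *C4b* values of NBH 1 week and ABH 4 weeks was not tested. Blood markers were called higher in 3 of 4 in NBH 4 weeks and lower in 2 of 4 in ABH 4 weeks, and striatum markers lower in 6 of 8 in NBH 4 weeks, a pool in which none of the 9 complement genes was called by its brightest probe.

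**Figure D5:**
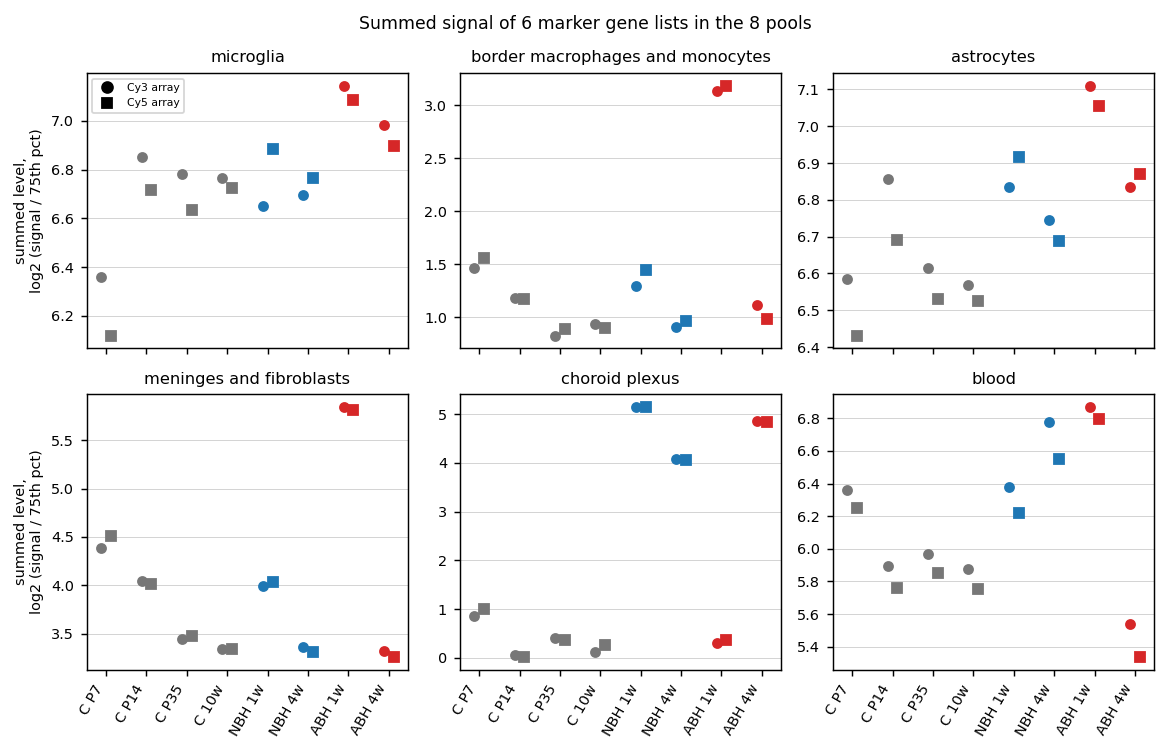
Summed signal of 6 marker lists (log2, signal over the 75th percentile of the array) in the 8 pools, with circles for Cy3 and squares for Cy5. Border macrophage and meningeal signal stands out in ABH 1 week alone, while choroid plexus signal stands out in both NBH pools and in ABH 4 weeks. The microglia and astrocyte sums are also highest in ABH 1 week, by less, and each includes a bright gene that was saturated on most arrays.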

How the data were processed

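The authors hybridized RNA of each of 8 pools to Agilent mouse 8 × 60 K arrays, a Cy3 and a Cy5 array per pool, and quantified the 16 scans with Agilent Feature Extraction 11.0.1.1, whose headers name the mm9 build. As deposited, the tables hold spot intensity in fluorescence units, and the processed intensity, background-subtracted by the software and with no dye normalization, was used. Control spots and outlier spots (140 to 237 per array) were dropped, repeated spots averaged, and values divided by the 75th percentile of the array and log2 transformed. Where a pool was not above background, the higher of its own signal and the lowest signal above background on that array was used, which gives a bound. Between 60.2% and 72.2% of spots were well above background, and the number of arrays limits the precision. Probes were named through RefSeq accessions (GRCm38.p6, names and promoter sequences only). Named genes are the 9 members, the other complement genes called or brightest, the 3 genes most like each member, and markers that moved. Some genes that these lists count are not reported here by name. The members and lists were chosen with earlier results of these data known. The value table of the series (column medians 89 to 138, unscaled) was equal to the processed signals within 1% or 1 unit and was not used further. The calling steps were run on simulated data, in which 2-fold changes and noise were put on the control signals. Such data check the steps alone, as they hold no variation between animals. Alternatives (12 planned) covered the background correction, scaling, filter, limits, dye, probe and control pool, with limma 3.58.1 in R 4.3.3 for normexp (offset 50) and Python 3.11.15, numpy 2.4.6, pandas 2.3.3 and matplotlib 3.10.9 for the rest.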

Additional observations from a re-analysis of the deposited data

Results flagged for a closer look

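*C1qa* and *C1qc* had changes of opposite sign with both dyes at 1 week after neonatal and after adult surgery, NBH against control P14 and ABH against the 10-week control. The change of *C1qa* in NBH 1 week minus that in ABH 1 week was −2.47 on the log2 scale, from −0.12 and −0.68 in NBH and 2.08 and 2.07 in ABH. The same difference for *C1qc* was −2.09, from −0.05 and −0.14 in NBH and 1.96 and 2.04 in ABH. The NBH values were not called lower. Over all genes in NBH 1 week the difference between the dyes had an SD of 0.40, and the *C1qc* values were small beside it. For *C1qb* the dyes gave opposite signs there, 0.12 and −0.20, so a fall of the chains after neonatal surgery is not shown. With 1 pool in each group the difference between the surgeries was not tested.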

How the results depend on the processing

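In ABH 1 week 9 genes were called higher under each of the 12 other settings except 2-fold limits (8, without *C3*) and the demand that all 4 arrays be above background (7 of 7 compared). In NBH 1 week the single call became 0 with median scaling and with 2-fold limits and 2 (*C3* and *C4b*) with the mean over all probes, or, an alternative chosen after seeing the data, with the second probe, which also gave 1 higher gene (*C3*) in NBH 4 weeks. With 1 dye alone NBH 1 week had 1 to 2 higher and 0 to 1 lower (*C1qa*, Cy5), and ABH 4 weeks 1 to 2 higher (*Cfb* besides *C4b*, Cy3). Against the 10-week control NBH 4 weeks had 1 lower (*C3ar1*, by 0.55), and without a background filter ABH 4 weeks had 2 higher (*C4b* and *C5ar1*). Between control ages, also checked after seeing the data, P14 against P7 had 1 higher with 2-fold limits (*C1qa*) and 1 lower with the second probe (*C3*). P35 against P14 had 0 higher with normexp, 2-fold limits, the mean over probes or the second probe. In 10 weeks against P35, median scaling gave 1 lower (*C1qc*) and 1 dye alone gave 0 to 1 higher (*C3ar1*). The cause of these shifts was not tested. No called gene changed direction, and 156 of 174 counts stayed within 1.5 times the main count or were equal.

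Scaling moves all genes. Without it, the median over all genes was −0.12 and −0.20 at 1 and 4 weeks in NBH and 0.02 and −0.10 in ABH, and with median scaling it was 0.28 in ABH 1 week. Over all genes in NBH 1 week 171 were higher and 181 lower, but 63 and 66 with normexp and 102 and 488 without scaling. In NBH 4 weeks 67 and 345 became 34 and 120 and 26 and 1242, in ABH 4 weeks 139 and 112 became 73 and 29 and 52 and 489, and in ABH 1 week 944 and 1589 became 1836 and 675 with median scaling. Over all settings, with 2-fold limits or 1 dye alone at most of the ends, the higher and lower counts ran from 51 to 796 and 11 to 1369 in NBH 1 week, 13 to 578 and 55 to 1432 in NBH 4 weeks, 513 to 1836 and 335 to 2979 in ABH 1 week, and 31 to 1125 and 8 to 1440 in ABH 4 weeks. The share of lower genes among all calls in ABH 1 week was 62.7%, but 26.9% with median scaling and 31.9% with quantile normalization. With normexp, whose offset compresses dim probes, 28 of 58 levels moved by more than the spread between dyes, by up to 1.02 for *C3ar1*, and the bounds of *C5ar1* and *Cfb* in ABH 1 week were 1.28 and 1.44 on the log2 scale in place of 2.06 and 2.64. The change of *C3* in ABH 1 week lay between 0.66 and 1.73 over the settings other than the second probe, which gave 2.71. No paired analysis was possible because each group is 1 pool and no test was made, and changes were already taken within a dye. Signals near background limit *C5ar1* and *Cfb* to bounds.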
